A study of Mus musculus with 5 samples.

Results

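The genes described here are the TRIM ubiquitin ligase family, measured by RNA sequencing in mouse kidney after activation of STING. Members were rows of the deposited count table whose symbol in GENCODE M21 is Trim followed by a number and at most 1 letter from a to d, with at least 10 counts summed over the 5 libraries. Of 68 such symbols in the table, 54 met this count, out of 54532 gene IDs in all, and 20009 IDs of the whole table reached the same count. The 14 symbols under it included the erythroid genes Trim10 and Trim58 and the muscle genes Trim54 and Trim55, and 5 of the 14 had no count in any library. Kidneys came from wild-type male C57BL/6J mice, an inbred strain, aged 8 weeks. The treated group (n = 2) received DMXAA at 10 mg/kg and the control group (n = 3) received vehicle, each by intraperitoneal injection once a day for 3 days, with tissue taken on day 3. DMXAA is a small molecule that binds and activates mouse STING, the adaptor of cytosolic DNA sensing. All 5 libraries are whole kidney tissue, so fewer cells of a type and less RNA per cell cannot be told apart. The labels number the samples as replicates without saying that each came from its own mouse, so p-values measure the spread between these samples.

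TRIM proteins share a tripartite motif, a RING domain that makes most of them E3 ubiquitin ligases, followed by B-box and coiled-coil domains, and a C-terminal domain that differs between subfamilies and selects targets. Several act in innate immunity. TRIM25 attaches or assembles ubiquitin chains that promote signalling by RIG-I, a cytosolic RNA sensor, TRIM21 is a cytosolic antibody receptor, TRIM56 has been tied to the DNA-sensing arm, and many TRIM genes are themselves induced by interferon. Others work far from immunity, such as TRIM28, a chromatin corepressor, and TRIM63 (MuRF1), a ligase of muscle atrophy.

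The 3 highest estimates of the family belonged to interferon-linked genes. Trim25 was 1.49-fold, Trim30a 1.56-fold and Trim30d 1.96-fold higher in the DMXAA kidneys, each with both DMXAA libraries above all 3 vehicle libraries. No member passed edgeR's quasi-likelihood test after Benjamini-Hochberg adjustment over all 16226 tested genes, in a fit where 0% of all genes passed. DESeq2 called 1 member, Trim25, where it called 0.296% of all genes with an adjusted p. Of the 42 other tested members, 40 had estimates within 1.5-fold in either direction, and the 2 outside, Trim15 and Trim34b, were low-count genes with estimates below 0.

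Promoter sequences are shown for the members with a match to an interferon response motif, together with Trim25, which has none. The interferon-stimulated response element (ISRE) is the site bound by the interferon-activated complex ISGF3 and by IRF proteins. Its core was searched on both strands as GAAA and GAAA with any 2 bases between them (TTTC and TTTC on the opposite strand) in RefSeq windows on GRCm38.p6, the same assembly as mm10, from 250 bases before to 50 bases after each start. RefSeq windows matched 42 of the 54 members, with 56 starts between them. Of the 42 members, 9 held at least 1 match (21.4%), against 3.99% of the 27025 genes with a window. Among these 9, Trim34a, Trim5, Trim12a, Trim12c, Trim30a and Trim30d lie in the same run of neighbouring genes on chromosome 7. Only Trim2, Trim21 and Trim26 lie outside it, so the share over the family rests largely on that run. Counted by start, 10 of 56 held a match, against 3.44% of 32851. No ISRE match overlapped a match to TTCNNNGAA, the core of the interferon-gamma activated sequence (GAS), which 3 of the 42 members (7.14%) and 9.55% of all genes held.

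The 30-base windows below are those of the Trim30 pair and its chromosome 7 neighbours, with Trim21 and Trim26, whose matches are doubled. They are printed on the gene's strand, 5′ to 3′, with the ISRE core in capitals.
Trim30d (chr7:104507871-104507900, minus strand): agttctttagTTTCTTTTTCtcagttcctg
Trim30a (chr7:104465210-104465239, minus strand): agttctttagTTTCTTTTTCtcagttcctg
Trim30a, inner start (chr7:104446104-104446133, minus strand): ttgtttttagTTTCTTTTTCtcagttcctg
Trim5 (chr7:104288136-104288165, minus strand): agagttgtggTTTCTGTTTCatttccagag
Trim12a (chr7:104315466-104315495, minus strand): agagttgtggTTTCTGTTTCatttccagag
Trim12c (chr7:104353359-104353388, minus strand): agagttgtggTTTCTGTTTCatttccagct
Trim34a (chr7:104244457-104244486, plus strand): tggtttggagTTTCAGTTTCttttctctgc
Trim21 (chr7:102565447-102565476, minus strand): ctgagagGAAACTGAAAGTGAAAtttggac
Trim26 (chr17:36836979-36837008, plus strand): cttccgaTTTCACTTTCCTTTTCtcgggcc
The windows of Trim30a and Trim30d are the same 30 bases, placed 36 and 41 bases before the start. Over 160 bases aligned on the core without gaps, the Trim30a outer start and Trim30d were 94.4% identical. Those of Trim5 and Trim12a are also the same 30 bases, 49 bases before and 10 bases after the start. Trim2 held the other match, 28 bases after its start.

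Trim25 and Trim30d differ in this respect, and their upstream sequences are given up to the first annotated base of the gene. The first holds no match to the core in these letters, and the second holds one. The window searched for Trim25 runs on past the stretch printed here and held no exact match either. Near matches, with a letter of the core changed, were not searched for any member, so an ISRE-like site at Trim25 is not excluded.
Trim25 (chr11:88999153-88999375, plus strand): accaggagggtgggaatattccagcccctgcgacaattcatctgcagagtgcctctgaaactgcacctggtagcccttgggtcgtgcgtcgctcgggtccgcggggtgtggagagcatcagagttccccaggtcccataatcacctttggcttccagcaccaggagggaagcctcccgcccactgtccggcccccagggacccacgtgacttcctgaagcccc
Trim30d (chr7:104507850-104508099, minus strand): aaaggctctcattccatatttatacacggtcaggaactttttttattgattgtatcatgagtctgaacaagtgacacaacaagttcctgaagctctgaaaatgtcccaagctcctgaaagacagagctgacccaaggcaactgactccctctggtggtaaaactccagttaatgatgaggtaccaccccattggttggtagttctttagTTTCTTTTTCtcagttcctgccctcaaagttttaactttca
Among tested members with a window, the 9 that held the core had a median log2 fold change of 0.20, with 8 estimates above 0. The 26 without it had a median of 0.0011, with 13 above 0. Most of the 9 belong to the run of chromosome 7 neighbours, some with the same window, so they are not independent of one another. These are descriptions of letters in a window, not of binding.

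Kidney held the family over a wide range of levels. Levels between genes are given per length, as TPM, a transcript abundance computed from the counts, the annotated exon length and the library total. By this measure 24 members averaged above 10 TPM over the 5 libraries and 16 averaged below 1 TPM. The most abundant was Trim44, which encodes a protein that lacks a RING and stabilises other TRIM proteins, at 79.3 to 91.2 TPM. Trim25 had the second highest mean over the 5 libraries, at 44.0 to 76.3 TPM, followed by Trim8, a regulator of cytokine signalling, at 50.4 to 57.2 TPM, the corepressor Trim28 at 47.4 to 55.6 TPM, and Trim7, named for its binding to glycogenin, at 36.0 to 48.4 TPM. The rank of Trim25 differed between the groups: in vehicle its mean of 48.3 ± 4.03 TPM (SD, n = 3) was below those of Trim8 (54.3 ± 3.57) and Trim28 (50.3 ± 4.63) and ranked 4, and in DMXAA its 73.9 ± 3.33 TPM (SD, n = 2) ranked 2. Only Trim44 in this order lay above the whole range of the next gene. The ranges of Trim25, Trim8, Trim28 and Trim7 overlapped one another in sequence. At the low end, Trim9 averaged 0.027 TPM and Trim66 averaged 0.035 TPM.

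**Figure D1:**
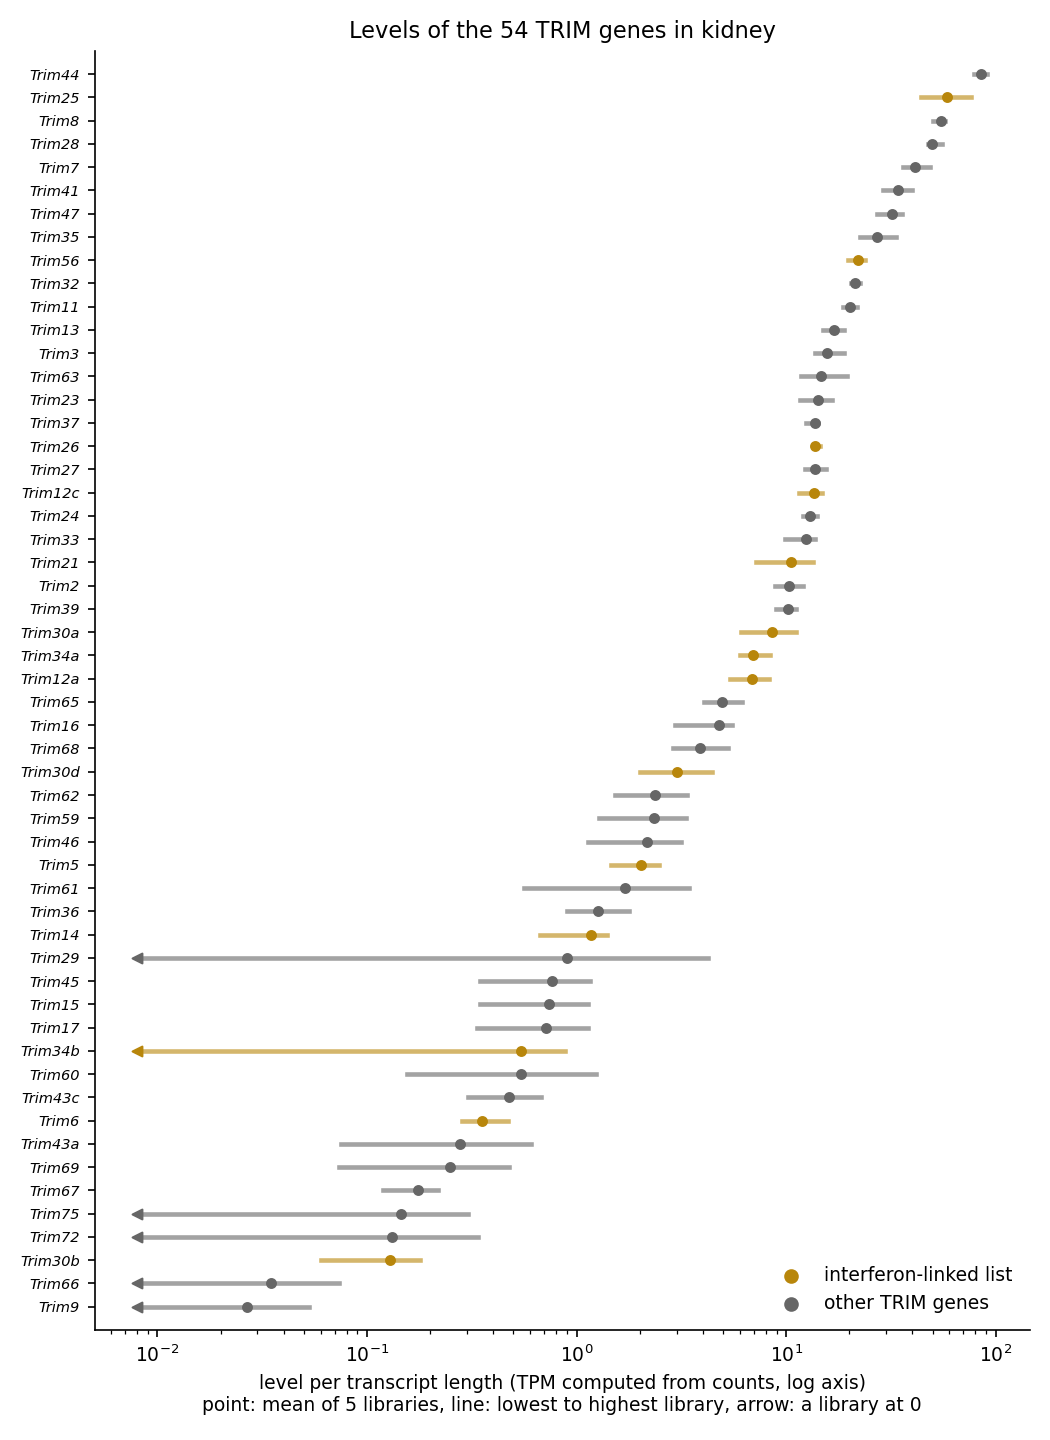
Level of each of the 54 TRIM genes per transcript length, in TPM computed from the counts, on a log axis, with the mean of the 5 libraries as a point and the lowest to highest library as a line; arrows mark genes with a library at 0. Trim44 is highest, Trim25 is second over the 5 libraries (rank 4 in vehicle, 2 in DMXAA), and 16 genes average below 1 TPM.

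The libraries held 17667490 to 20264228 counts, and levels are given as CPM, counts scaled to the library total times its TMM factor. On that scale an absence of counts still permits 0.149 to 0.170 CPM, with 3 counts as the limit and counting error alone covered. The kidney markers Slc34a1, Lrp2, Umod, Slc12a1, Slc12a3 and Aqp2 were present in all 5 libraries. Lrp2 and Slc12a1, of the proximal tubule and thick ascending limb, were higher in both DMXAA libraries than in any vehicle library (log2 fold changes 0.32 and 0.40, edgeR adjusted p 0.741 and 0.766), and Aqp2 of the collecting duct reached 772 CPM only in vehicle library 1, with 216 to 327 CPM in the others. Vehicle library 1 stood apart in neighbouring tissue: 6 adipocyte markers summed to 390 CPM there and to 27.7 to 55.3 CPM in the other libraries, and 6 urothelium markers to 114 CPM there and to 2.21 to 12.7 CPM elsewhere. Vehicle library 2 had the highest vehicle level of Irf7, a regulator of interferon genes (192 CPM, against 48.7 and 68.3), and of Isg15, a ubiquitin-like modifier (20.6 CPM, against 7.5 and 8.81). Among the immune lists, 7 macrophage and monocyte markers summed to 123 to 185 CPM (vehicle) against 163 to 172 CPM (DMXAA), and 9 T and NK cell markers to 11.2 to 18.4 CPM (vehicle) against 8.75 to 13.9 CPM (DMXAA). Neutrophil markers (5 genes) summed to 3.88, 20.5 and 51.1 CPM (vehicle) against 4.93 and 6.96 CPM (DMXAA), highest in vehicle library 3. B cell markers (6 genes, 3.51 to 5.15 CPM in vehicle and 1.39 to 2.27 in DMXAA) and red blood cell markers (6 genes, 73.3 to 280.1 and 29.9 to 52.3 CPM) were lower in both DMXAA libraries than in any vehicle library. The part of these differences in the TRIM values was not tested.

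Of the 54 members, 45 passed edgeR's expression filter and were tested. In the fit 26 of 45 estimates were above 0 (57.8%), against 46.9% of all tested genes, and the median log2 fold change was 0.06, against -0.01 over all tested genes. At an unadjusted p below 0.05 edgeR counted 4 members higher (8.89%) and 2 lower (4.44%), against 3.89% and 2.65% of all tested genes, or 6 in either direction against 6.55%. DESeq2 counted 4 of the 54 members higher and 0 lower at an unadjusted p below 0.05. Of the 28030 genes it tested, 2.16% were higher and 1.38% lower. That background includes genes under the count minimum set for members, which only 20009 IDs reached. The DESeq2 shares are therefore not like for like, and no excess of members is read from them. The family median was -0.01 without vehicle library 2 and 0.02 without DMXAA library 1. Both DMXAA libraries lay above all vehicle libraries for 9 members (20%), against a background of 13.7%, and below them for 5 (11.1%), against 12.2%. The smallest adjusted p of any member was 0.535, which was also the smallest of the whole table. Summed over the 54 members, TRIM transcripts made 1265, 1309 and 1311 CPM (vehicle) against 1388 and 1384 CPM (DMXAA). Trim25 alone took 7.92 to 8.45% of this sum in vehicle and 11 and 11.6% in DMXAA, and without it the sums were 1158, 1205 and 1206 CPM (vehicle) against 1235 and 1223 CPM (DMXAA).

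**Figure D2:**
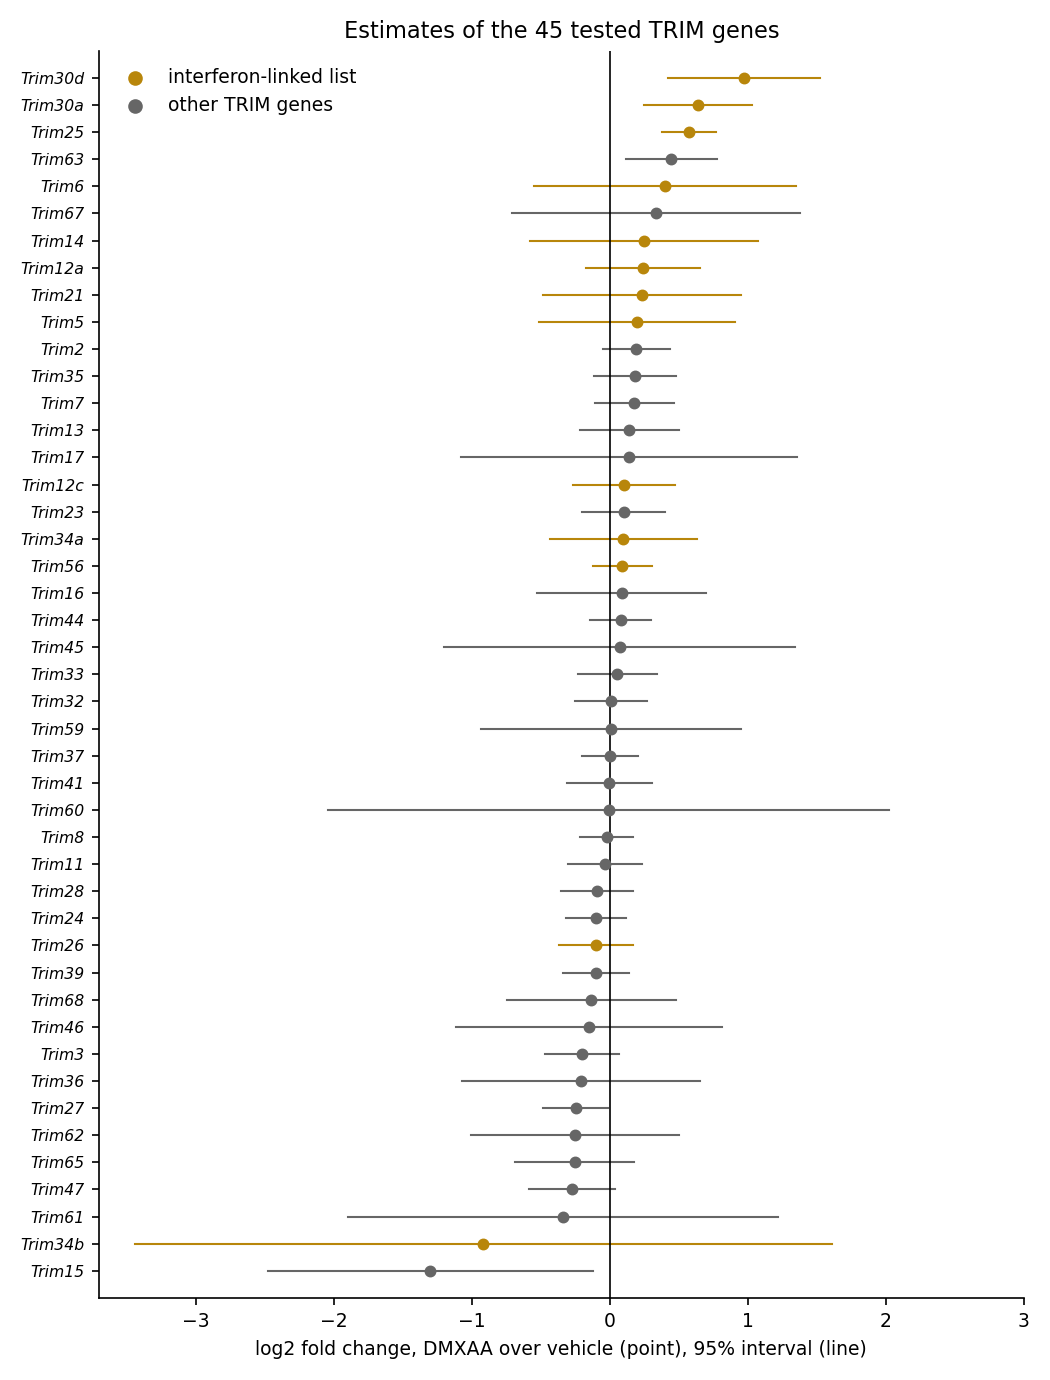
Log2 fold change, DMXAA over vehicle, of the 45 tested TRIM genes from edgeR, with unadjusted 95% intervals as lines and interferon-linked genes in gold. Trim30d, Trim30a, Trim25 and Trim63 lie above 0 with their intervals, Trim15 and Trim27 below it, and all other intervals cross 0.

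Trim25, the ligase of RIG-I signalling (ENSMUSG00000000275, mm10 chromosome 11 from 88999376 to 89020293, plus strand), had 107, 104 and 105 CPM (vehicle) against 153 and 160.3 CPM (DMXAA). The vehicle libraries lay within a few CPM of one another and both DMXAA libraries stood well clear of them. Its means were 105 ± 1.61 CPM (SD, n = 3) and 157 ± 5.15 CPM (SD, n = 2), a log2 fold change of 0.57 (SE 0.08). Its unadjusted p in edgeR, 2.56e-04, ranked 5 among all tested genes, and its edgeR adjusted p was 0.535. DESeq2 gave a log2 fold change of 0.58 and an adjusted p of 2.06e-05, the only call among the members. With DMXAA library 1 left out DESeq2 gave a log2 fold change of 0.62 and an adjusted p of 0.196, and with DMXAA library 2 left out 0.54 and an adjusted p of 1. In both fits the DMXAA arm is 1 library, assumed to vary like the vehicle libraries, which alone give the spread. Leaving out vehicle library 1, 2 or 3 kept it called (DESeq2 adjusted p 0.00232, 4.65e-04 and 0.0385). The gene's transcripts share 0.19% of their 50-base stretches with other genes.

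Trim30a encodes an interferon-induced protein that limits NF-kB signalling, and its neighbour Trim30d a close relative. Trim30a (ENSMUSG00000030921, chromosome 7 from 104409025 to 104465193, minus strand) was at 8.90, 12.2 and 11.1 CPM (vehicle) against 17.0 and 16.4 CPM (DMXAA), a log2 fold change of 0.64 (SE 0.16) with an edgeR adjusted p of 0.724. Trim30d (ENSMUSG00000057596, chromosome 7 from 104470014 to 104507849, minus strand) was at 2.70, 3.69 and 2.83 CPM (vehicle) against 5.99 and 6.06 CPM (DMXAA), a log2 fold change of 0.97 (SE 0.23) with an edgeR adjusted p of 0.724. For both genes the DMXAA libraries were nearly equal and did not overlap the vehicle libraries. DESeq2 called neither, with adjusted p of 0.28 and 0.225. The pair shares sequence: 5.98% of the 50-base stretches of Trim30a occur in Trim30d and 6.39% of those of Trim30d in Trim30a. Trim30b, the third member of the group, had 34 counts in all, did not pass the filter, and was at 0.162 to 0.511 CPM (vehicle) against 0.499 and 0.447 CPM (DMXAA). Trim30c had 2 counts.

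**Figure D3:**
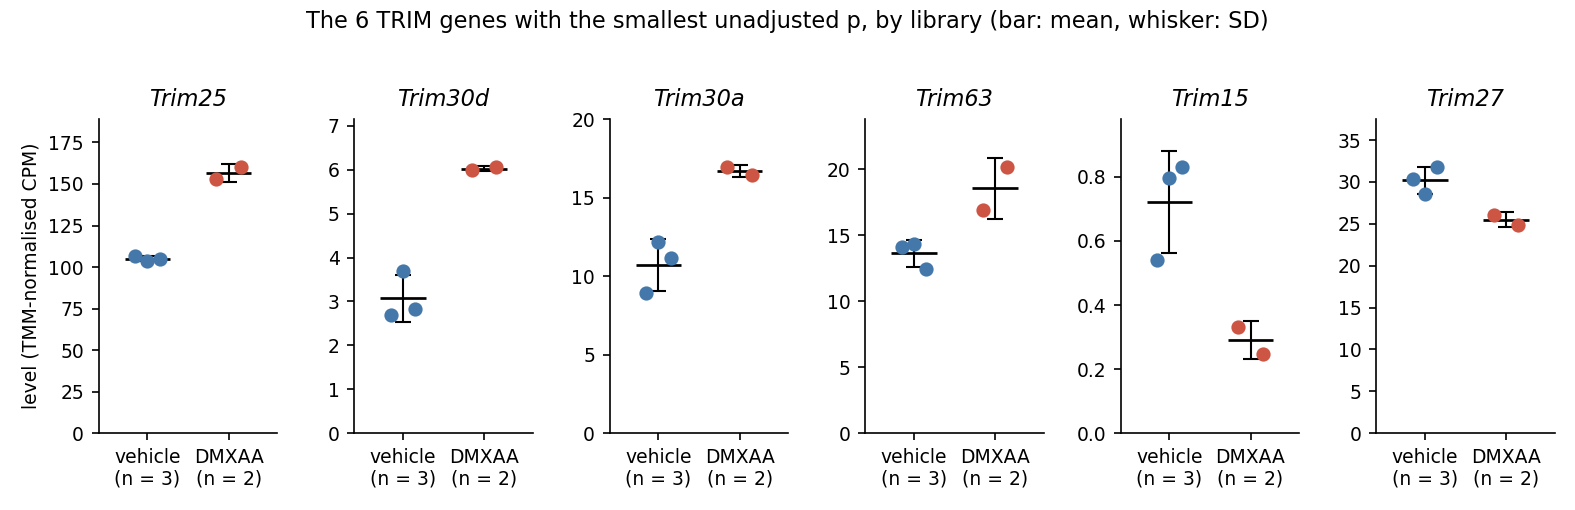
Level in each library, in TMM-normalised CPM, of the 6 TRIM genes with the smallest unadjusted p, with vehicle (n = 3) in blue, DMXAA (n = 2) in red, the mean as a bar and the SD as a whisker. Trim25, Trim30d, Trim30a and Trim63 are higher in both DMXAA libraries than in any vehicle library, and Trim15 and Trim27 are lower.

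The interferon-linked list held 15 genes, of which 14 were members and 13 were tested. Of these, 11 had estimates above 0, 3 reached an unadjusted p below 0.05 in edgeR (Trim25, Trim30a and Trim30d, all higher), 0 passed after adjustment, and the median log2 fold change was 0.23. In 5 of 13 both DMXAA libraries lay above all vehicle libraries, in 0 below, and in 8 the groups overlapped. Over all tested genes, 46.9% had estimates above 0, 3.89% were higher at an unadjusted p below 0.05, and 13.7% and 12.2% lay above and below without overlap. The 32 other tested members had a median of -0.0040, with 15 estimates above 0. Leaving out vehicle library 3 gave a list median of 0.13, DMXAA library 1 gave 0.16 and vehicle library 2 gave 0.35.

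Within this list the sensors and adaptors were less clear than Trim25. The antibody receptor gene Trim21 (ENSMUSG00000030966, chromosome 7 from 102557921 to 102565486) was at 11.2, 20.4 and 9.97 CPM (vehicle) against 16.4 and 16.3 CPM (DMXAA). Its vehicle library 2 was the highest of all 5 and the groups overlapped (log2 fold change 0.23, SE 0.30, edgeR adjusted p = 0.873). Without that library the estimate was 0.62, with an unadjusted p of 0.0042 and an adjusted p of 0.342 in edgeR. Without vehicle library 1 it was 0.10 and without vehicle library 3 it was 0.04. For 8 of the 13 tested genes of the list, vehicle library 2 was the highest vehicle library. The same share over all tested genes was not counted, so this number has no background. Vehicle library 2 also had the highest vehicle Irf7 and Isg15. Its part in the estimates other than by leaving it out was not tested.

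Trim56, a ligase tied to STING and cGAS, was at 70.1, 75.4 and 78.4 CPM (vehicle) against 78.5 and 80.7 CPM (DMXAA). The groups did not overlap, but the lowest DMXAA library lay only just above the highest vehicle library (log2 fold change 0.09, 95% interval -0.12 to 0.30). Trim6, which makes unanchored ubiquitin chains in interferon signalling, was near the detection limit at 0.554 to 0.593 CPM (vehicle) against 0.665 and 0.845 CPM (DMXAA). Trim14, a MAVS adaptor without a RING, was at 2.16, 1.19 and 1.88 CPM (vehicle) against 2.22 and 1.94 CPM (DMXAA), with overlapping groups. Nans, on the opposite strand, shares 31.3% of the exonic bases of Trim14, and without a stated strand setting their reads cannot be told apart. Trim26, a ligase that has been linked to IRF3 turnover, had an estimate below 0 (-0.10, SE 0.11), with 33.6 to 40.7 CPM (vehicle) against 34.5 and 33.6 CPM (DMXAA).

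A run of 9 members lies together on chromosome 7: Trim6, Trim34a, Trim5, Trim12a, Trim34b, Trim12c, Trim30b, Trim30a and Trim30d, in order of position. Their behaviour differed within the run. Trim30a and Trim30d, at its end, had both DMXAA libraries above all vehicle libraries, as did Trim6. The rodent relatives of the retroviral restriction factor TRIM5 did not: Trim12a was at 13.8 ± 2.28 and 16.3 ± 1.97 CPM (log2 fold change 0.24, SE 0.17), Trim12c, a TRAF6-binding ligase, at 18.6 ± 3.00 and 19.98 ± 1.06 CPM (0.10, SE 0.15), and Trim5 at 2.66 ± 0.606 and 3.06 ± 0.458 CPM (0.20, SE 0.30), as mean ± SD over 3 vehicle and 2 DMXAA libraries. Groups overlapped for all of these. Trim12c and Trim5 share 24.2% and 23.5% of their 50-base stretches with each other, so the split of reads between them is uncertain. Trim34a was at 5.56, 7.78 and 6.43 CPM (vehicle) against 6.15 and 7.95 CPM (DMXAA), and Trim34b at 0.540, 0.227 and 0.609 CPM (vehicle) against 0.499 and 0 CPM (DMXAA), where the 0 permits a level of 0.149 CPM. Of the 50-base stretches of Trim34b, 56.8% occur in Trim34a, and both have uncertain levels. The direction of both estimates turned when 1 library was left out.

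**Figure D4:**
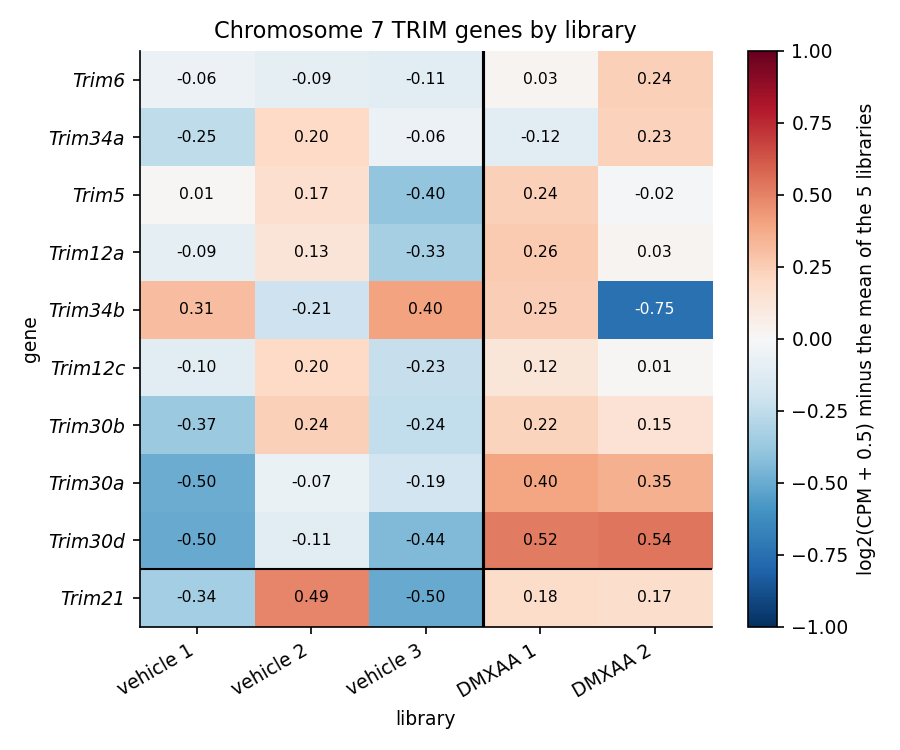
Deviation of each library from the mean of the 5 libraries, as log2(CPM + 0.5), for the 9 clustered chromosome 7 TRIM genes in order of position and for Trim21, which lies elsewhere on that chromosome. Trim30a and Trim30d lie between 0.35 and 0.54 in both DMXAA libraries and below 0 in every vehicle library, while Trim21 is highest in vehicle library 2 (0.49).

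The RIG-I pathway list around TRIM25 held 15 genes, of which 14 were tested. Of these, 13 had estimates above 0, against 46.9% of all tested genes, and 0 passed edgeR's test after adjustment. At an unadjusted p below 0.05 there were 3 higher (Irf7, Dhx58 and Ifih1) and 1 lower (Irf3), against 3.89% and 2.65% of all tested genes, and the median log2 fold change was 0.20. The RIG-I gene itself, Ddx58, overlapped between the groups at 39.8, 56.5 and 38.7 CPM (vehicle) against 49.7 and 52.9 CPM (DMXAA). Mavs, the adaptor downstream of RIG-I, was at 84.8, 81.4 and 91.18 CPM (vehicle) against 91.24 and 96.2 CPM (DMXAA). Dhx58, encoding the RIG-I relative LGP2, was at 2.59, 5.74 and 3.71 CPM (vehicle) against 7.87 and 8.35 CPM (DMXAA), and the RNA sensor gene Ifih1 at 23.5, 33.3 and 25.1 CPM (vehicle) against 34.5 and 38.7 CPM (DMXAA). Rnf135, the other ligase of RIG-I, was at 9.44, 16.8 and 13.1 CPM (vehicle) against 19.8 and 17.8 CPM (DMXAA). Irf7 was at 342 and 477 CPM in DMXAA, above the 192 CPM of vehicle library 2, and Irf3, the transcription factor activated by both RIG-I and STING, was lower at 41.7 and 40.6 CPM, against 50.3, 53.3 and 46.5 CPM in vehicle. The list median was 0.36 without vehicle library 2.

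Among the 11 DNA-sensing genes, all tested, 7 had estimates above 0, against 46.9% of all tested genes, and 0 passed after adjustment. At an unadjusted p below 0.05 in edgeR, 2 were higher (Ifi204 and Usp18) and 2 lower (Insig1 and Irf3). Over all tested genes these shares were 3.89% and 2.65%. The list median was 0.0075. Irf3 and Tbk1 are on both this list and the RIG-I list, so the counts of the lists are not separate. Tmem173, which encodes STING, was at 4.53, 5.79 and 6.48 CPM (vehicle) against 4.82 and 3.88 CPM (DMXAA), and Cgas at 1.19, 0.852 and 1.22 CPM (vehicle) against 1.61 and 1.04 CPM (DMXAA), both with overlapping groups. Insig1, which restrains sterol synthesis, was at 52.9, 74.3 and 59.9 CPM (vehicle) against 42.8 and 44.3 CPM (DMXAA). The 11 ubiquitin-system partners (E1, E2 and ubiquitin genes) had a median of 0.02, with 6 estimates above 0 and 0 genes at an unadjusted p below 0.05 in edgeR. Ube2n, the E2 that builds the chain type used in RIG-I signalling, was at 73.9, 81.5 and 74.2 CPM (vehicle) against 74.8 and 85.6 CPM (DMXAA). Of the 4 TRIM family genes with other symbols, 3 were tested, all with estimates above 0 and 0 at an unadjusted p below 0.05 in edgeR. Pml (TRIM19), the nuclear body protein, was at 30.7, 30.1 and 31.7 CPM (vehicle) against 37.6 and 34.1 CPM (DMXAA), without overlap (log2 fold change 0.22, SE 0.09, edgeR adjusted p = 0.741).

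Outside the interferon-linked list, Trim63 was the member with the smallest unadjusted p. This gene of the MuRF1 ligase (ENSMUSG00000028834, chromosome 4 from 134315120 to 134329629, plus strand) was at 14.1, 14.3 and 12.5 CPM (vehicle) against 16.9 and 20.2 CPM (DMXAA). Both DMXAA libraries were above the vehicle range, and they differed from each other by more than the vehicle libraries did. Its log2 fold change was 0.44 (SE 0.14, edgeR adjusted p = 0.724), and it was 0.31 when DMXAA library 2 was left out and 0.57 when DMXAA library 1 was. Skeletal muscle markers (6 genes) summed to 1.25 to 1.94 CPM (vehicle) against 0.776 to 1.44 CPM (DMXAA), with the myosin gene Myh4 at 0 in all. Most of these sums was Mylpf, at 1.19 to 1.29 CPM (vehicle) against 0.776 and 1.09 CPM (DMXAA). The part of muscle tissue in the Trim63 value was not tested. Trim54 and Trim55, the relatives of Trim63, had no count in any library.

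Lower in DMXAA at an unadjusted p below 0.05 in edgeR were Trim15 and Trim27, and DESeq2 put neither below 0.05. Trim15, linked to focal adhesions, was at 0.540, 0.795 and 0.831 CPM (vehicle) against 0.333 and 0.248 CPM (DMXAA), on 50 counts in all (log2 fold change -1.30, SE 0.49, edgeR adjusted p = 0.741). Trim27, a nuclear and endosomal ligase, was at 30.3, 28.6 and 31.8 CPM (vehicle) against 26.1 and 24.8 CPM (DMXAA) (log2 fold change -0.25, SE 0.10, edgeR adjusted p = 0.741). The change in Trim27 was small, but its groups did not overlap. Trim47, a PRY-SPRY ligase, was at 31.1, 40.0 and 34.8 CPM (vehicle) against 27.7 and 30.7 CPM (DMXAA), also without overlap. It shares 8.23% of its exonic bases with Trim65 on the same strand, and Trim65, which acts on the RNA sensor MDA5, was at 12.9, 12 and 10.1 CPM (vehicle) against 10.9 and 8.75 CPM (DMXAA).

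By C-terminal domain, the largest class was PRY-SPRY, with 32 members, 26 tested, 14 estimates above 0 and a median of 0.09. In the class list used, PRY-SPRY held the interferon-linked genes other than Trim56, and the domain of each protein was not checked. The 3 NHL-repeat members went different ways: Trim2, which acts on neurofilaments, was at 67.2, 71.3 and 78.3 CPM (vehicle) against 78.7 and 86.7 CPM (DMXAA), Trim3 was at 31.0, 25.8 and 27.8 CPM (vehicle) against 25.1 and 24.2 CPM (DMXAA), and Trim32, mutated in a muscular dystrophy, was at 23.5 to 27.0 CPM (vehicle) against 26.8 and 25.2 CPM (DMXAA). For Trim2 and Trim3 the groups did not overlap, in opposite directions, and neither reached an unadjusted p below 0.05 in edgeR. The PHD-bromodomain class of chromatin regulators had 4 members, of which Trim66 was not tested. Trim33 had a 95% interval of 0.854-fold to 1.27-fold. Trim28 was at 70.4, 81.4 and 86.03 CPM (vehicle) against 76.3 and 72.7 CPM (DMXAA), with a 95% interval of 0.784-fold to 1.13-fold, and Trim24 was at 40.7, 42.1 and 44.6 CPM (vehicle) against 40.6 and 38.8 CPM (DMXAA), with an interval of 0.804-fold to 1.08-fold. The microtubule-linked COS-FN3 class (Trim9, Trim36, Trim46 and Trim67) lay at or below 2.16 TPM on average, and none of its 3 tested genes reached an unadjusted p below 0.05 in edgeR.

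Abundant members bounded the size of change that could have been missed. Trim44 was at 165, 183 and 181 CPM (vehicle) against 186 and 188 CPM (DMXAA), with a 95% interval of 0.907-fold to 1.23-fold. Trim8 was at 75.9, 76.5 and 76.5 CPM (vehicle) against 73.5 and 76.8 CPM (DMXAA), with an interval of 0.862-fold to 1.12-fold, and Trim37, the MATH-domain member, had an interval of 0.870-fold to 1.156-fold. Trim7 was at 111, 123 and 102 CPM (vehicle) against 137 and 117 CPM (DMXAA), and Trim35, which binds pyruvate kinase, at 43.2, 42.4 and 47.8 CPM (vehicle) against 44.8 and 56.3 CPM (DMXAA), both with overlapping groups. These intervals come from edgeR's SE, are unadjusted, and exclude a 1.5-fold change for Trim44, Trim8, Trim28, Trim24 and Trim37. Those of Trim7 (0.930-fold to 1.38-fold) and Trim35 (0.925-fold to 1.40-fold) exclude it too. The same holds for other members, such as Trim33 and Trim56.

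The 9 members outside the test were Trim9, Trim29, Trim30b, Trim43a, Trim43c, Trim66, Trim69, Trim72 and Trim75, each at 0.511 CPM or less in every library except Trim29. That gene, expressed in stratified and other epithelia, was at 5.29 CPM in vehicle library 1 and at 0 to 0.166 CPM in the other 4. Vehicle library 1 was also the library with the most urothelium transcripts, with Krt5 at 11.9 CPM there and 0 to 0.776 CPM elsewhere and Upk2 at 8.85 CPM there and 0 to 1.72 CPM elsewhere; their part in the Trim29 value was not tested. Trim75 was at 0.378, 0.114 and 0.388 CPM (vehicle) against 0.055 and 0 CPM (DMXAA), on 17 counts in all.

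Estimates of the 3 genes with the smallest unadjusted p, a choice made from these data, stayed above 0 when 1 library was left out. For each of them both DMXAA libraries lay above all vehicle libraries. Leaving out 1 library could therefore hardly turn the sign, and only the size of the estimates is informative. Over the 5 fits that left out 1 library, Trim25 ran from 0.54 to 0.61, Trim30a from 0.51 to 0.74 and Trim30d from 0.88 to 1.13. Their adjusted edgeR p ran from 0.2 to 1 in these fits, and their unadjusted p reached 0.0453 in edgeR and 0.0681 in DESeq2.

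**Figure D5:**
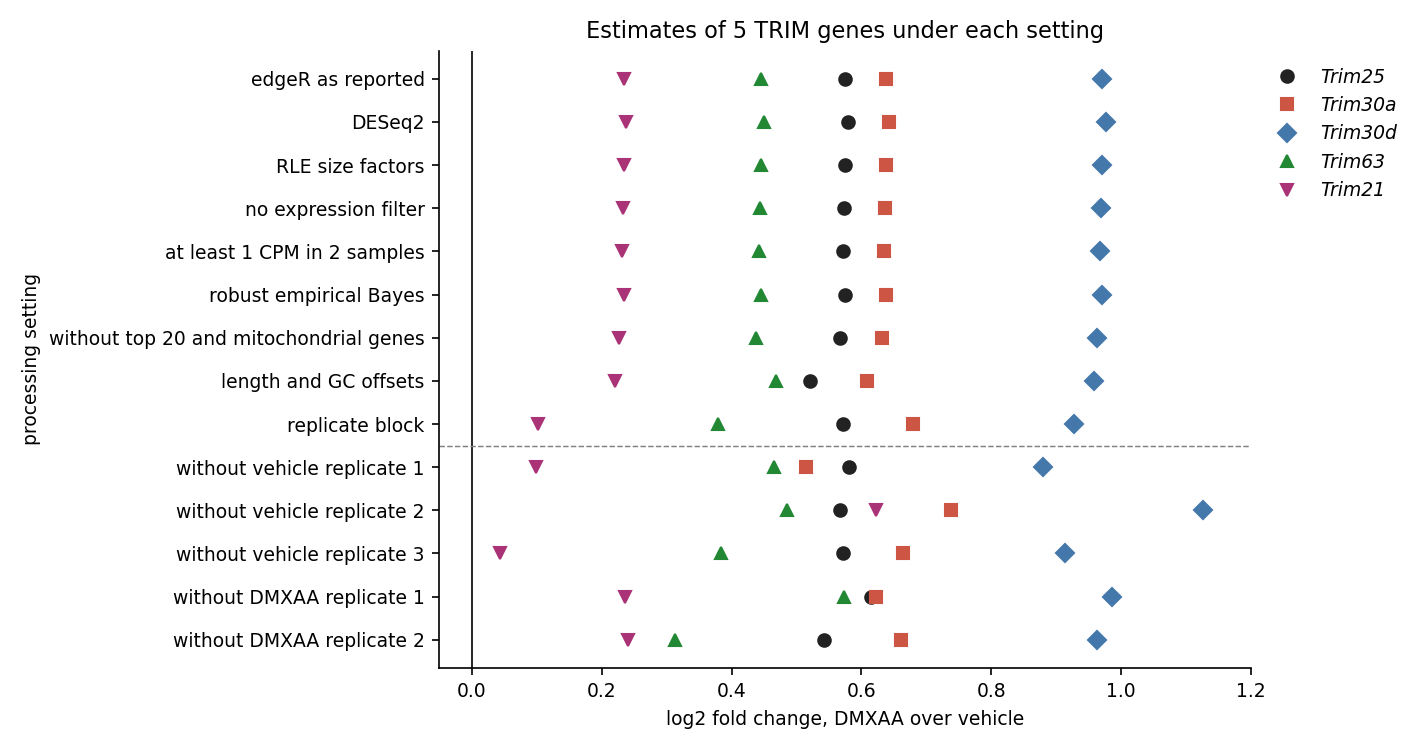
Log2 fold change, DMXAA over vehicle, of 5 TRIM genes under each processing setting (rows), with the fits that leave out 1 library below the dashed line. Trim25 stays between 0.52 and 0.61 over the settings drawn, while Trim21 runs from 0.04 to 0.62 with the largest value without vehicle library 2.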

How the data were processed

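The deposited values are unnormalised read counts, 1 row per Ensembl gene ID and 1 column per kidney library. The authors worked on mm10 with featureCounts, Subread, HISAT2 and DESeq2 1.16.1, per the submitters' processing notes. Annotation, strand setting and multi-mapping rule were not given in the sources used here. The labels' protocols name a TruSeq and a NEBNext kit without tying either to a sample. Columns CO1 to CO3 were read as vehicle and XA1 and XA2 as DMXAA replicates. GENCODE M21 gave symbols for 99.9% of IDs. Libraries of a group differed beyond sampling noise (chi-square divided by its degrees of freedom, 7.35 to 38.5).

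The test was edgeR 4.0.16 in R 4.3.3 (quasi-likelihood, TMM scaling, default expression filter, group as the only term) over 16226 genes, with calls at 0.05 after Benjamini-Hochberg adjustment, and it was tested on simulated data. The alternatives were DESeq2 1.42.0, other scalings, filters, offsets, a replicate block and leaving out each library. DESeq2 with each library left out was chosen after seeing the data. Shared sequence was counted as 50-base stretches of GENCODE transcripts found in another gene. Members, gene lists and rules were chosen with earlier results of these data known. Named members were the interferon-linked list, the 12 smallest unadjusted p, the 5 highest per length, DESeq2 calls, and those of domain classes with 4 or fewer members; others, such as Trim75, were named after their values were seen.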

Additional observations from a re-analysis of the deposited data

How the results depend on the processing

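With 3 against 2 libraries, edgeR called 0 TRIM members under each setting tried; DESeq2 called 1 (Trim25). DESeq2 with 1 library left out called 0 to 1. Over all genes, edgeR called 0, 34 without an expression filter, 4 with the replicate block and 0 to 2 with 1 library left out, and DESeq2 called 54. The count of members lower at an unadjusted p below 0.05, 2 as reported, was 0 in DESeq2, 1 with at least 1 CPM in 2 samples, 0 with the replicate block and 0 to 2 with 1 library left out. Members below all vehicle libraries, 5 as reported, numbered 6 to 10 with 1 library left out, where fewer libraries make non-overlap easier.

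The family median of 0.06 was 0.0122 with length and GC offsets and ran from -0.0137 to 0.0733 with 1 library left out. The interferon-linked median of 0.23 was 0.13 with the replicate block and 0.13 to 0.35 with 1 library left out. The median of TRIM family genes with other symbols, 0.16, was 0.13 in DESeq2, 0.12 without a filter, 0.20 with the replicate block and 0.0761 to 0.203 with 1 library left out. That of ubiquitin partners, 0.02, ran from -0.0611 to 0.104 with 1 library left out. The cause of these differences was not tested.

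Of 36 named and tested members, 10 changed sign under at least 1 setting, all with 95% intervals that crossed 0. With 1 library left out, Trim8 (-0.02) ran from -0.0525 to 0.0153, Trim32 (0.01) from -0.0589 to 0.0549, Trim33 (0.06) from -0.0277 to 0.141, Trim34a (0.10) from -0.0974 to 0.277, Trim36 (-0.21) from -0.567 to 0.0937, Trim37 (0.0036) from -0.0150 to 0.0300, Trim45 (0.07) from -0.583 to 0.522, Trim46 (-0.15) from -0.432 to 0.124 and Trim59 (0.0072) from -0.283 to 0.294. Trim34b (-0.92) was 0.12 without DMXAA library 2 and -6.11 without DMXAA library 1, where the remaining DMXAA library is at 0 and the value is no bound. Length and GC offsets gave 0.0300 for Trim8, -0.0350 for Trim33 and -0.0644 for Trim37. Without the 20 most abundant and mitochondrial genes Trim37 was -0.0037 and Trim59 was -3.9e-04, and with the replicate block Trim46 was 0.0187. Replicate numbers 1 and 2 are shared between the groups, but the labels tie them to no litter or day, so they were not taken as pairs. Deviations of same-numbered libraries from their group means correlated at 0.064 and 0.055 across genes. With 2 DMXAA libraries the crossed values (-0.064 and -0.055) are the same with the sign turned by construction. These correlations therefore cannot decide whether the numbers are pairs. Trim6, Trim15, Trim34b and Trim67 dropped out under the filter of 1 CPM, and Trim34b also without vehicle library 1 or 3. Trim15 and Trim75 rest on 50 and 17 counts.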
